A study of Mus musculus with 20 samples.

Results

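Axon guidance ligands and receptors were followed in ribosome footprints of mouse embryonic stem cells (mESCs). The members are the 64 genes, of 22416 in the count table, whose symbols begin like those of semaphorins, ephrins, Eph receptors, netrins, UNC5 receptors, Slits, Robo receptors or neuropilins. They comprised 7 secreted class 3 semaphorins, 12 transmembrane semaphorins, 1 GPI-anchored semaphorin (Sema7a), 2 neuropilins, 5 ephrin-A and 3 ephrin-B ligands, 9 EphA and 5 EphB receptors, 4 secreted and 2 GPI-anchored netrins, 4 UNC5 receptors, 3 Slits and 4 Robo receptors. The name rule also took in 3 genes of another kind, Plxdc1, Plxdc2 and Unc5cl, which are not guidance receptors of these families. The plexins, the receptors of semaphorins, have symbols that it did not match, so they are described with the other pathway genes.

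Guidance cues are secreted or membrane-bound ligands that attract or repel a growing axon through a receptor on its tip. Class 3 semaphorins act through neuropilins and plexins, other semaphorins through plexins, ephrins through Eph receptor kinases, netrins through Dcc and UNC5 receptors, and Slits through Robo receptors. The same families act outside the nervous system in cell sorting, boundary formation and migration of early embryonic cells, and several of them are made by pluripotent cells.

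The cells were eIF2α+/+ (WT) or eIF2αA/A (KI), the latter carrying a version of the translation initiation factor eIF2α that cannot take the regulatory phosphate on its serine. All cells grew in serum-free medium with the cytokine LIF. For 6 days they received either LIF with the MEK inhibitor PD0325901 and the GSK3 inhibitor CHIR99021 (LIF/2i) or LIF without the inhibitors. Ribosome-protected fragments were made with MNase (12 libraries, 3 for every combination of genotype and medium, 4 combinations in all) or with RNase I (8 libraries, 2 for every combination). The labels do not say how many clones stand behind a genotype, nor whether each replicate was its own culture, and p-values here cover only the spread between these libraries. A footprint count joins how much mRNA a gene has with how densely it is translated, and matched RNA-seq was not used here. In such bulk samples, fewer cells of a type and less RNA per cell cannot be told apart.

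With MNase, the totals of WT libraries spanned 2127850 to 5461210 counts and those of KI libraries 6560173 to 8894080, so that depth did not overlap between the genotypes. With RNase I, WT spanned 4011036 to 22916734 and KI 1965050 to 16359039. The 64 members together held 0.0839% to 0.126% of the counts of a library with MNase, and 53 to 64 of them had at least 1 count in a given library. All 9 mESC markers, among them Pou5f1, Sox2 and Nanog, were detected in every group, with a summed level of 4229 to 6051 CPM (a gene's count as a share of the library total, scaled to a common size) in the MNase libraries. The KI libraries numbered 1 departed from the other KI libraries with MNase. Where a group has 2 libraries, as with RNase I, which of them departs cannot be told. WT LIF replicate 2 stood apart in the fibroblast markers Col1a1 and Col1a2, and WT LIF/2i replicate 3 in some endoderm and trophoblast markers. In the WT LIF/2i libraries with MNase, Col4a1 was at 20.6, 11.2 and 168 CPM and Gata3 at 3.90, 4.99 and 27.0 CPM, and their part in the members' levels was not tested. MNase and RNase I libraries of the same number deviated from their group means together (r = 0.486 to 0.711 across genes, which are not independent replicates). The nucleases are therefore treated as repeat digests and not as separate evidence, although the labels state only a shared number.

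Levels below are CPM scaled by TMM, a factor that evens out differences in composition between libraries. A gene is called where edgeR's quasi-likelihood test, adjusted over all tested genes with the Benjamini-Hochberg method, gave a p under 0.05. With MNase, 46 of the 64 members had enough counts to be tested, and 20 of the 46 were called in at least 1 of the comparisons of genotype or medium.

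Promoter sequences of 4 members are shown first, since they belong to genes whose footprints moved with medium in both genotypes: Efnb2 and Nrp2 were higher in LIF than in LIF/2i, and Epha4 and Sema5a lower. Each is the 250 bases before the annotated start in RefSeq on GRCm38.p6, read 5′ to 3′ on the strand of the gene. Capitals mark a match to CTTTGAT, the core bound by TCF/LEF factors, on either strand.
Efnb2 (chr8:8661243-8661492, minus strand): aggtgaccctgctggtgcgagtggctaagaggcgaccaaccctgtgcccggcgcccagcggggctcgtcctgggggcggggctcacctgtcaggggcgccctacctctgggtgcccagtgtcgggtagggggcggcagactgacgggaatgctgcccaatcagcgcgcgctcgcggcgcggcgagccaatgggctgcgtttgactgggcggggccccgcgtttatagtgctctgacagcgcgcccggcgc
Nrp2 (chr1:62703067-62703316, plus strand): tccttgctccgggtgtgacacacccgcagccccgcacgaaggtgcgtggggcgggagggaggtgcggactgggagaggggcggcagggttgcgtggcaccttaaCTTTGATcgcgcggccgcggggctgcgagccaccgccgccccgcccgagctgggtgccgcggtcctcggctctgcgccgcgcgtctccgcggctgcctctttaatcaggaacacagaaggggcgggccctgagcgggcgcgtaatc
Epha4 (chr1:77515089-77515338, minus strand): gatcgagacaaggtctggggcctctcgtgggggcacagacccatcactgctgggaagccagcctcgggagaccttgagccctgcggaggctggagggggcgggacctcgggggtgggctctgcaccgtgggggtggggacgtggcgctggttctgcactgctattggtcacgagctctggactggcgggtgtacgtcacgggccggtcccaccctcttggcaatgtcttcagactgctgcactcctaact
Sema5a (chr15:32244563-32244812, plus strand): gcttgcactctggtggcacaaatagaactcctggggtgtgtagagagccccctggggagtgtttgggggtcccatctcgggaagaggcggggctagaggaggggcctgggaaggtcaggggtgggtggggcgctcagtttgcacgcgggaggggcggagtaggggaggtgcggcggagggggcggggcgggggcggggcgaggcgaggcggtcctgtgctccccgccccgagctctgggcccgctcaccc

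Only Nrp2 among these held CTTTGAT, at position -146 from its start. Windows were found for 55 of the 64 members, in 70 windows with alternative starts counted, and CTTTGAT was present in 1 of the 70 (1.43%) against 3.21% of 32851 windows of that length in the whole table. Another 3 motifs were searched on both strands. TGANTCA, bound by AP-1 factors, was in 3 of the 70 member windows, those of Sema4c, Sema4d and Sema6b, against 6.75% of all windows. TGATGNAA, bound by Atf4 with a C/EBP partner, was in 1, that of Ntng1, against 3.45%. TTCNNNGAA, bound by STAT factors, was in 2, those of Efna3 and Epha3, against 7.02%. The member windows were rich in G and C, at a median of 63.8% against 52.4% over all windows, and the 4 shown ranged from 66.0% to 72.4%.

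Between LIF and LIF/2i, 15 of the 46 tested members were called in WT, in KI or in both. Ephrin-B2, neuropilin-2, Sema3e, Sema6a, Epha1 and Epha8 were higher in LIF in both genotypes, and Sema5a, Epha4, netrin-1 and Slit2 were lower in both. In WT, 6 members were higher, where 9.99% of all 12806 tested genes were, and 8 were lower, where 11.0% were. In KI, 7 were higher against 8.37% of all tested genes, and 4 were lower against 10.3%. The median log2 difference of the members was 0.13 in WT and 0.15 in KI, against medians of 0.0070 and -0.0026 over all tested genes.

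Of the ligands, the transmembrane ephrin Efnb2, which binds EphB receptors and Epha4, was at 4.61, 2.93 and 2.95 CPM in WT LIF/2i and at 13.2, 26.9 and 23.4 CPM in WT LIF. In KI it was at 3.51, 2.94 and 3.11 CPM with the inhibitors and at 18.8, 12.9 and 19.0 CPM without. All LIF libraries lay above all LIF/2i libraries, with a log2 fold change of 2.63 ± 0.32 (SE, n = 3 and 3, adjusted p = 0.000172) in WT and 2.40 ± 0.30 (adjusted p = 0.000171) in KI. The secreted Sema3e, a ligand of plexin D1, was at 3.19, 3.23 and 3.69 CPM in WT LIF/2i and rose to 11.9, 19.8 and 13.7 CPM in WT LIF. In KI the inhibitors left it at 1.83, 2.56 and 3.39 CPM, against 12, 27.9 and 25.4 CPM with LIF alone. The groups were apart in both genotypes, by 2.16 ± 0.38 on the log2 scale in WT (adjusted p = 0.0017) and by 3.06 ± 0.35 in KI (adjusted p = 0.000119).

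Sema3f, a secreted semaphorin that binds neuropilin-2, was at 1.99, 0.768 and 0.847 CPM in KI LIF/2i and at 3.54, 6.08 and 8.27 CPM in KI LIF, a log2 fold change of 2.32 ± 0.49 (adjusted p = 0.00557), and of 3.12 without KI replicate 1. In WT its values were 3.19, 1.47 and 1.72 CPM with the inhibitors and 6.84, 7.32 and 3.17 CPM without, with a lone overlap between the groups, a log2 difference of 1.42 ± 0.53 and an adjusted p of 0.0728. The WT and KI differences of Sema3f were not shown to differ from each other (interaction adjusted p = 0.664). Sema6a, a transmembrane semaphorin that binds class A plexins, had 5.67, 2.93 and 4.18 CPM in WT LIF/2i and 9.58, 14.9 and 6.68 CPM in WT LIF. In KI it had 3.05, 4.48 and 3.81 CPM with the inhibitors and 15.7, 9.12 and 9.72 CPM without. It rose by 1.29 ± 0.38 in WT (log2, adjusted p = 0.0304) and by 1.59 ± 0.35 in KI (adjusted p = 0.00675), with no overlap in either genotype.

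Among the ligands that fell, Ntn1, the secreted netrin that binds Dcc and UNC5 receptors, dropped the most in WT. Its WT LIF/2i libraries held 36.5, 43.7 and 7.38 CPM and its WT LIF libraries 1.83, 1.63 and 2.64 CPM, a log2 fold change of -3.75 ± 0.80 (adjusted p = 0.00542). The groups did not overlap, although WT LIF/2i replicate 3 was far below replicates 1 and 2, and the fold change without it was -4.23. In KI, Ntn1 was at 115, 30.3 and 25.3 CPM with the inhibitors and at 9.69, 11.4 and 18.2 CPM without, a log2 fold change of -2.10 ± 0.60 (adjusted p = 0.0274). The KI call rested on replicate 1: without it in both media the difference was -0.90 and not called, and it was also lost with a replicate block (-1.77). Slit2, a secreted ligand of Robo receptors, fell from a mean of 29.3 ± 6.30 CPM (SD) to 8.56 ± 0.842 CPM in WT, a log2 fold change of -1.77 ± 0.48 (adjusted p = 0.0190). In KI it fell from 33.3 ± 19.9 to 8.23 ± 3.78 CPM (-2.01 ± 0.45, adjusted p = 0.00716), where KI LIF/2i replicate 1, at 11.3 CPM, lay within the range of the LIF libraries, and the fold change without KI replicate 1 was -2.15. Sema5a, which fell with both medium and genotype, is described with the genotype.

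Of the receptors, neuropilin-2 (Nrp2), the co-receptor of Sema3f, was at 2.84, 2.05 and 0.738 CPM in WT LIF/2i and at 20.5, 14.1 and 19.2 CPM in WT LIF. In KI it was at 4.58, 2.05 and 1.98 CPM with the inhibitors and at 5.54, 9.12 and 10.7 CPM without. The groups did not overlap in either genotype, and the log2 fold change was 3.30 ± 0.48 in WT (adjusted p = 0.000495) and 1.57 ± 0.41 in KI (adjusted p = 0.0160), where it was 2.29 without replicate 1. The interaction of Nrp2, -1.73 ± 0.63, was not called (adjusted p = 0.295). In the plot of Nrp2 and 7 other members by library, the WT LIF libraries of Nrp2 lie above those of KI LIF with MNase.

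**Figure D1:**
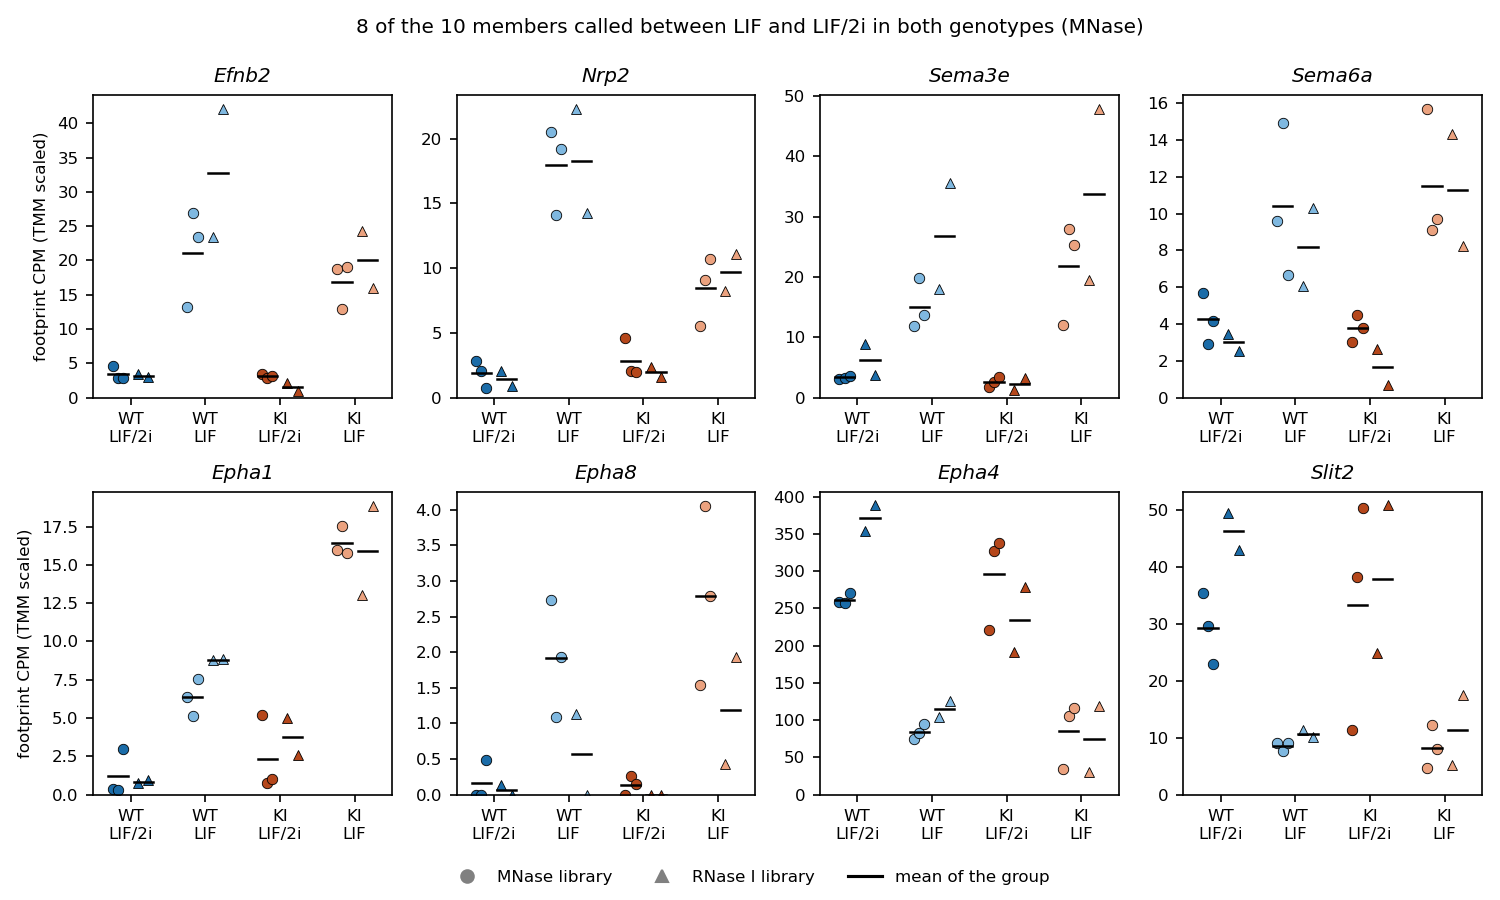
Footprint level (CPM, TMM scaled, each panel on its own linear axis from 0) of 8 members in every library, by genotype and medium. Circles are MNase libraries, triangles RNase I libraries and bars group means. Efnb2, Nrp2, Sema3e, Sema6a, Epha1 and Epha8 are higher in LIF and Epha4 and Slit2 lower with MNase, and Slit2 in KI overlaps between the media.

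The EphA receptors moved in both directions. Epha4, which binds ephrins of both classes, fell from 258, 257 and 270 CPM in WT LIF/2i to 74.4, 83.3 and 95.3 CPM in WT LIF. In KI it fell from 221, 328 and 338 CPM to 33.7, 106 and 116 CPM, with replicate 1 lowest in both media. All LIF libraries were below all LIF/2i libraries, with log2 fold changes of -1.63 ± 0.33 (adjusted p = 0.00429) and -1.79 ± 0.33 (adjusted p = 0.00243). Epha2, a receptor of ephrin-A ligands, was at 178, 182 and 167 CPM in WT LIF/2i and at 86.7, 82.7 and 107 CPM in WT LIF, and fell by 0.92 ± 0.25 on the log2 scale (adjusted p = 0.0178). In KI it was at 169, 190 and 159 CPM with the inhibitors and at 248, 114 and 119 CPM without, where replicate 1 lay above and the others below all LIF/2i libraries. The KI difference of Epha2 was -0.11 ± 0.24 and not called.

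Epha1 was low in LIF/2i, at 0.355, 0.293 and 2.95 CPM in WT and at 5.19, 0.768 and 0.988 CPM in KI. In LIF it was at 6.39, 5.15 and 7.56 CPM in WT and at 16, 17.5 and 15.7 CPM in KI, above every LIF/2i library of its genotype. Its log2 fold change was 2.27 ± 0.76 (adjusted p = 0.0479) in WT and 2.85 ± 0.61 (adjusted p = 0.00574) in KI, and the WT call was lost in 7 of 21 alternatives, each of them with 1 library left out. The size rested on single libraries of LIF/2i: it was 4.22 in WT without LIF/2i replicate 3 and 4.21 in KI without replicate 1 in both media, called in each case. Epha8 rested on few counts, with 2 in WT LIF/2i against 21 in WT LIF, and 3 in KI LIF/2i against 63 in KI LIF, each summed over 3 libraries. The ratio of LIF to LIF/2i was 9.35 in WT (95% exact interval 2.28 to 82.2, counting error only) and 20.1 in KI (6.58 to 100.3). Epha8 had 0, 0 and 0.492 CPM in WT LIF/2i, 2.74, 1.08 and 1.93 CPM in WT LIF, 0, 0.256 and 0.141 CPM in KI LIF/2i and 1.54, 4.05 and 2.79 CPM in KI LIF. It was called in both genotypes (adjusted p = 0.0323 in WT and 0.00232 in KI), and WT LIF/2i replicate 3 held both of the WT LIF/2i counts, so no fold is given without it. The KI log2 fold change was 4.86 without KI LIF/2i replicate 2, against 4.13 with it.

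Ephb6, an Eph receptor without kinase activity, was the one EphB receptor called. Its WT LIF/2i libraries held 16.3, 15.6 and 10.8 CPM and its WT LIF libraries 5.02, 4.61 and 6.15 CPM, a log2 fold change of -1.41 ± 0.30 (adjusted p = 0.00531). In KI it was at 7.33, 5.76 and 7.62 CPM with the inhibitors and at 5.23, 2.89 and 4.58 CPM without, and the difference of -0.70 ± 0.28 was not called (adjusted p = 0.106). In WT alone, 2 more transmembrane semaphorins were called: Sema4f fell from a mean of 13.4 to 3.83 CPM (-1.78 ± 0.53, adjusted p = 0.0312) and Sema6c from 39.3 to 20.1 CPM (-0.97 ± 0.28, adjusted p = 0.0253).

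Of these, 10 members were called in both genotypes, and they had the same direction in WT as in KI, 6 higher and 4 lower. The plot of the WT against the KI difference shows these along the diagonal. No member passed the test of the interaction, which asks whether the medium difference was unequal between genotypes, where 0.102% of all tested genes were higher and 0.234% lower. At an unadjusted p under 0.05 there were 5 members (Sema5a, Nrp2, Sema3b, Sema7a and Epha2), and DESeq2 also called 0. Without KI replicate 1 in both media the interaction called 1 member, Sema4f.

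**Figure D2:**
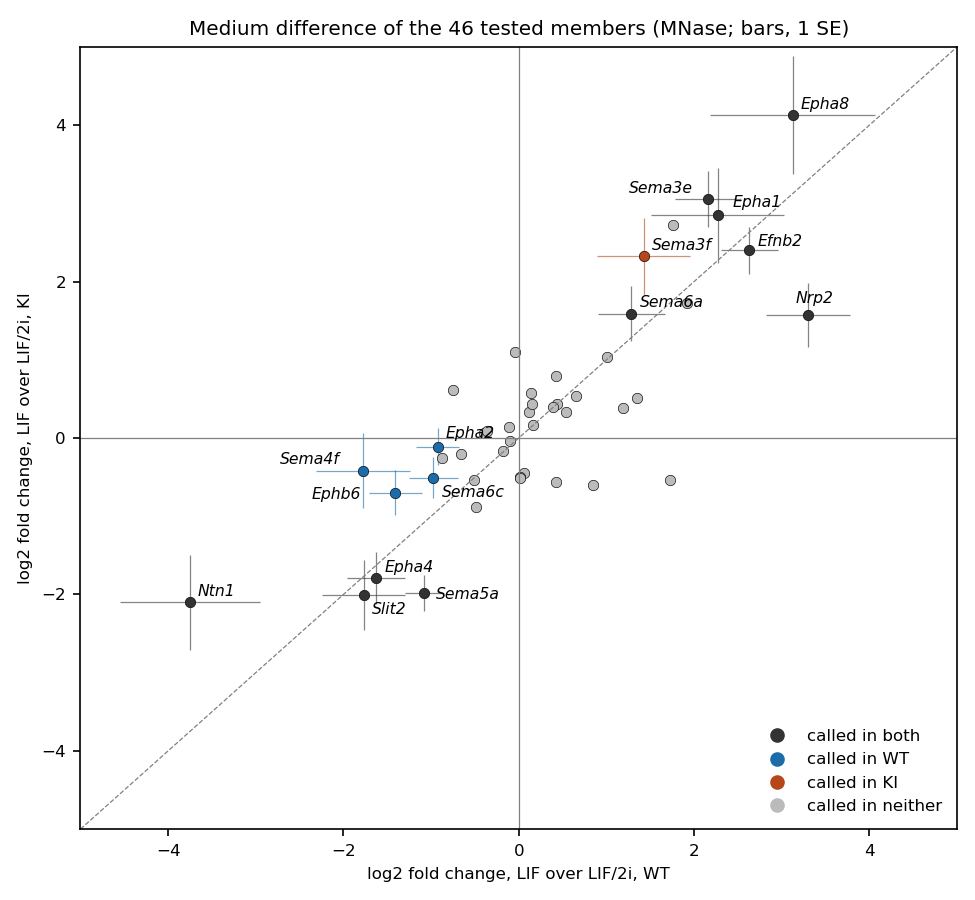
Log2 fold change of LIF over LIF/2i in WT (horizontal) and KI (vertical) for the 46 members tested with MNase, with bars of 1 SE for the called members and the line of equal change dashed. The 10 members called in both genotypes lie at the upper right and lower left, 4 were called in WT alone and Sema3f in KI alone.

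The KI libraries of the same number deviated together between the media (r = 0.315 to 0.563 across genes), but replicates 2 and 3 did so across numbers as well (0.404 and 0.367), and replicate 1 did not with either (-0.508 to -0.431). These values set replicate 1 apart and do not show that 2 and 3 pair by number. As every same-numbered value was positive, the KI comparison was also fitted with a replicate block. Its count stayed at 11 members with MNase, with Sema4c gained and Ntn1 lost, and the block within genotype gave 15. No share of all genes is given beside these counts. In WT the count of 14 fell to 7 without WT LIF replicate 1 and to 9 without WT LIF replicate 2 or WT LIF/2i replicate 2. Efnb2, Epha4, Ephb6, Nrp2, Ntn1, Sema3e and Sema5a were called in WT in every alternative run. The WT calls of Epha2, Epha8, Sema4f, Sema6a, Sema6c and Slit2 were each lost in 3 to 6 alternatives, WT LIF replicate 1 being among the libraries whose removal lost every one of them. In KI, Nrp2 lost its call in 4 of 21 alternatives (KI LIF/2i replicate 2 or 3 or KI LIF replicate 3 left out, and thinning) and Sema3f in 1 (thinning). Markers of other cell types moved with medium as well. In WT, 7 of 11 tested endoderm markers were higher in LIF, with a summed level of 167, 134 and 323 CPM in the LIF/2i libraries against 612 to 853 CPM in LIF, as were 5 of 5 trophoblast markers (176 to 245 and 456 to 647 CPM). In KI, 3 of the 11 endoderm markers and 0 of 5 trophoblast markers were higher, and the endoderm sum went from 161 to 174 CPM up to 352 to 424 CPM. Of 6 tested markers of neuroectoderm and neurons, 2 were higher in LIF in each genotype, and Neurog2 was at 0 in all MNase libraries. Of 6 tested fibroblast markers, 3 were higher and 1 lower in each genotype, of 3 endothelial markers 2 were higher in each, and of 2 mesoderm markers 1 was higher in each. The mESC list fell more often than it rose, with 4 of 9 markers lower in WT and 6 of 9 in KI, and 1 higher in each. The part of these cells in the members' differences was not tested.

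Between the genotypes, the transmembrane semaphorin Sema5a was lower in KI in both media and with both nucleases. In LIF/2i, 3 members were higher in KI and 3 lower, where 13.8% and 11.5% of all tested genes were. In LIF, 2 were higher and 2 lower, against 7.36% and 6.05%. The share of members called was therefore below that of all genes in LIF/2i (6 of 46) and near it in LIF (4 of 46). The median log2 difference of the members was -0.12 in LIF/2i and 0.09 in LIF, against 0.0063 and -0.0071 over all tested genes.

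Sema5a, which carries thrombospondin repeats beside its semaphorin domain, was at 79.8, 92.7 and 95.9 CPM in WT LIF/2i and at 26.9, 33.5 and 44.5 CPM in KI LIF/2i. In LIF it was at 35.1, 41.2 and 49.4 CPM in WT and at 6.46, 9.99 and 9.94 CPM in KI. The 3 KI libraries lay below the 3 WT libraries in each medium, and within each genotype LIF lay below LIF/2i. The log2 fold change of KI over WT was -1.36 ± 0.21 in LIF/2i (SE, n = 3 and 3, adjusted p = 0.00118) and -2.25 ± 0.23 in LIF (adjusted p = 0.000662). The difference of LIF from LIF/2i was -1.08 ± 0.22 in WT (adjusted p = 0.00357) and -1.98 ± 0.23 in KI (adjusted p = 0.000116). The interaction was -0.90 ± 0.31 and not called (adjusted p = 0.263), and it was called in a fit of both nucleases together, which counts repeat digests as if they were separate replicates. All 4 calls of Sema5a held in every alternative run with MNase, counts thinned to the smallest library included.

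Sema5b, the other class 5 semaphorin, went the opposite way in LIF/2i. It was at 3.19, 3.81 and 5.90 CPM in WT and at 11.6, 24.1 and 19.6 CPM in KI, so that every KI library was above every WT library (2.07 ± 0.45, adjusted p = 0.0061). In LIF it was at 7.76, 7.59 and 13.9 CPM in WT and at 11.2, 30.5 and 30.6 CPM in KI, where KI replicate 1 lay within the WT range, and the difference of 1.27 ± 0.40 was not called (adjusted p = 0.0539). The LIF/2i call of Sema5b held in all 20 alternatives run. In the plot of the 9 genotype-called members, Sema5a and Sema5b separate the genotypes in LIF/2i in mirrored order.

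**Figure D3:**
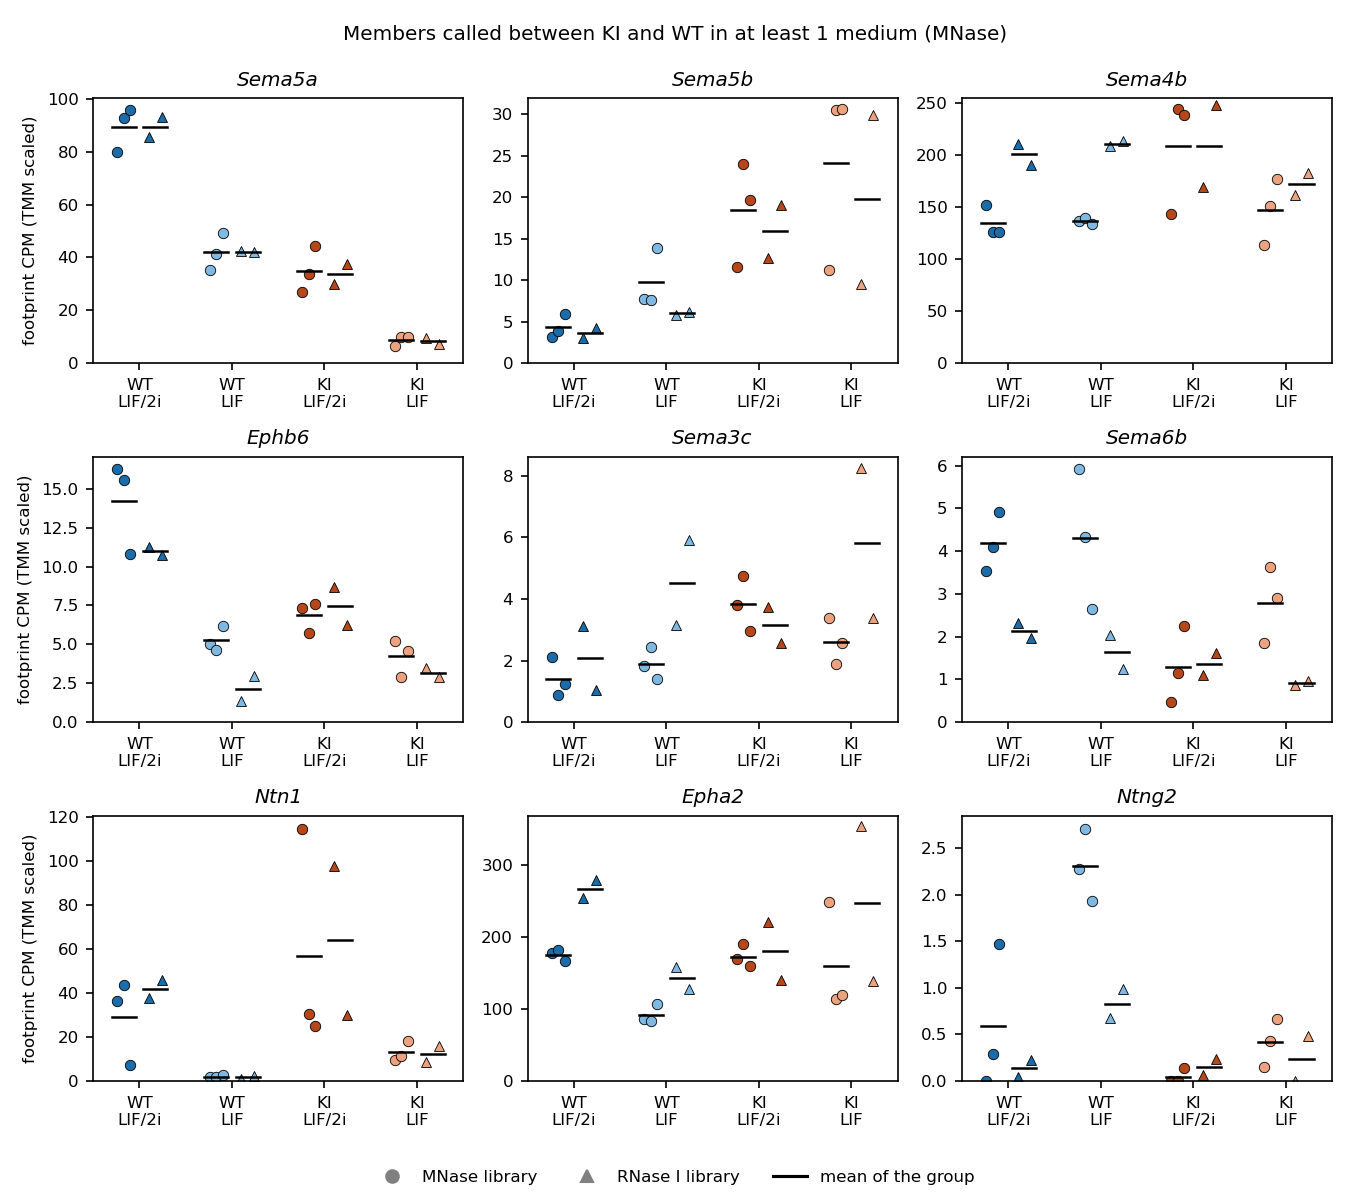
Footprint level (CPM, TMM scaled, each panel on its own linear axis from 0) in every library of the 9 members called between KI and WT in at least 1 medium. Circles are MNase libraries, triangles RNase I libraries and bars group means. Sema5a falls from WT to KI in both media, and Ntn1 and Epha2 each have 1 KI replicate far above the others.

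The other 4 calls in LIF/2i were smaller or less steady. Sema3c, a secreted semaphorin that acts through neuropilins, was at 2.13, 0.880 and 1.23 CPM in WT and at 3.82, 4.74 and 2.96 CPM in KI (1.47 ± 0.44, adjusted p = 0.0264). Sema4b was at 151, 126 and 126 CPM in WT and at 143, 244 and 239 CPM in KI (0.63 ± 0.20, adjusted p = 0.0346), and KI replicate 1 lay within the WT range; without it in both media the difference was 0.84. The call of Sema4b was lost in 7 of 20 alternatives, among them scaling by library totals. Ephb6 had 16.3, 15.6 and 10.8 CPM in WT against 7.33, 5.76 and 7.62 CPM in KI (-1.04 ± 0.28, adjusted p = 0.0173). Sema6b, which binds class A plexins, had 3.55, 4.11 and 4.92 CPM in WT and 0.458, 1.15 and 2.26 CPM in KI (-1.68 ± 0.51, adjusted p = 0.0283). Without KI LIF/2i replicate 3 the difference of Sema6b was -2.32. Sema3c, Ephb6 and Sema6b did not overlap between the genotypes, and each lost its call in 3 or 4 alternatives.

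In LIF, 3 members beside Sema5a were called, each close to the threshold. Ntn1 was at 1.83, 1.63 and 2.64 CPM in WT and at 9.69, 11.4 and 18.2 CPM in KI (2.62 ± 0.80, adjusted p = 0.0468), with no overlap and a difference of 2.79 without KI replicate 1. The call of Ntn1 was lost in 7 of 20 alternatives, its log2 fold change ranging from 2.31 to 2.96. Ntng2, a GPI-anchored netrin, was at 2.28, 2.71 and 1.93 CPM in WT and at 0.154, 0.434 and 0.670 CPM in KI (-2.32 ± 0.71, adjusted p = 0.0472), from 26 and 10 counts. Its call was lost in 12 of 19 alternatives. Epha2 was at 86.7, 82.7 and 107 CPM in WT and at 248, 114 and 119 CPM in KI (0.79 ± 0.24, adjusted p = 0.0477). The call of Epha2 was lost in 12 of 20 alternatives and the difference was 0.33 without KI replicate 1.

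These counts moved with single libraries. In LIF/2i, 6 members were called with all libraries, 2 when either WT or KI LIF/2i replicate 2 was left out, 3 when WT LIF/2i replicate 3 was, and 3 after counts were thinned to 2127850, the total of the smallest MNase library. Without KI replicate 1 in both media the count was 15, as 9 members were gained (Efna3, Slit3, Sema4f, Epha4, Unc5a, Slit2, Plxdc1, Sema7a and Efnb3), while the share called of all genes rose to 39.1%. In LIF, 4 were called with all libraries, 8 when KI replicate 1 was dropped from both media, 7 when it was dropped from LIF/2i alone, 3 without KI LIF replicate 1 or WT LIF/2i replicate 3, and 1 or 2 without any other single library. The 8 comprised Sema5a and Ntn1 with Sema3e, Nrp2, Epha4, Sema5b, Epha1 and Efna4 gained, while Epha2 and Ntng2 were lost. The share of all genes called in these LIF runs is not given here, so the counts are not read as results about the members. The marker lists differed between genotypes too. In LIF, 7 of 11 endoderm markers, 2 of 5 trophoblast markers and 3 of 9 mESC markers (Nanog, Sox2 and Dppa5a) were lower in KI, as was 1 of 2 mesoderm markers, and 1 of 6 fibroblast markers was higher and 1 lower. In LIF/2i, Gata6 (-2.63 ± 0.34), Sox17 (-1.45 ± 0.44) and Sox2 (-0.66 ± 0.14) were lower in KI, and Lamb1 (0.48 ± 0.17), Krt18 (1.89 ± 0.57), Utf1 (0.51 ± 0.17) and Esrrb (0.43 ± 0.14) higher. The markers' part in the members' differences was not tested.

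Several families had no called member with MNase. Of the 5 ephrin-A ligands, the smallest p was that of Efna4 in the genotype comparison in LIF, with 21.0, 17.1 and 14.2 CPM in WT and 13.1, 9.99 and 10.4 CPM in KI (-0.63 ± 0.25, adjusted p = 0.108). Of the Robo receptors, Robo1 had the smallest p, with 15.2, 11.4 and 19.9 CPM in WT LIF/2i and 9.58, 8.95 and 7.39 CPM in WT LIF (-0.87 ± 0.39, adjusted p = 0.131). These groups did not overlap in the libraries, but neither difference passed the test. Of the UNC5 receptors, Unc5a had 0.709, 0.293 and 0.246 CPM in WT LIF/2i and 0.763, 2.43 and 3.81 CPM in KI LIF/2i (2.51 ± 0.88, adjusted p = 0.0518). Unc5b, the UNC5 receptor with the most counts, was at 27.8 to 62.9 CPM in all MNase libraries but 1, WT LIF replicate 2, where it was at 87.3 CPM. Sema7a had 9.22, 7.34 and 14.5 CPM in WT LIF/2i and 7.02, 4.61 and 3.25 CPM in KI LIF/2i (-1.07 ± 0.38, adjusted p = 0.0533). Of the 3 name-matched genes, Unc5cl had the smallest p, with 5.48, 4.07 and 3.17 CPM in WT LIF and 1.85, 1.88 and 2.23 CPM in KI LIF (-1.03 ± 0.41, adjusted p = 0.115). The 26 tested members that were never called with MNase included Sema4d and Ephb3, and the 18 untested ones, such as Ntng1 (3 counts in all 20 libraries) and Epha3 (10 counts), had too few counts.

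RNase I libraries gave fewer calls in the genotype comparisons, and the members called with MNase and tested with RNase I kept their directions. Over the 42 members tested with both, the log2 differences of the nucleases correlated at r = 0.656 in LIF/2i and 0.883 in LIF. In LIF/2i the members' median log2 difference of KI over WT was 0.13 with RNase I and -0.12 with MNase. Of 42 members tested, 0 were higher and 1 lower in KI in LIF/2i (against 0.116% and 0.116% of 12095 tested genes), and 0 higher and 1 lower in LIF (0% and 0.116%). That member was Sema5a in both media. With RNase I it had 85.5 and 93.3 CPM in WT LIF/2i, 30.1 and 37.4 CPM in KI LIF/2i, 42.3 and 42.1 CPM in WT LIF and 9.55 and 7.25 CPM in KI LIF. The groups did not overlap, and the log2 fold change of KI over WT was -1.41 ± 0.20 in LIF/2i (n = 2 and 2, adjusted p = 0.0355) and -2.32 ± 0.24 in LIF (adjusted p = 0.0331). Both calls were lost in 6 of 13 alternatives, each with 1 of the 8 libraries left out. For the medium, 6 members were higher and 5 lower in WT (against 7.17% and 6.47%), and 3 higher and 1 lower in KI (1.41% and 2.04%). The interaction had 0 calls in either direction, where 0% and 0% of all genes were called.

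Every member that was called with MNase and tested with RNase I had the same sign with both, 13 of 13 for the medium in WT, 10 of 10 for the medium in KI, 5 of 5 for genotype in LIF/2i and 3 of 3 in LIF. The plot of the nucleases against each other shows them along the diagonal. Digests of the same number deviate together, and the share over all genes called with MNase is not given here. The shared signs are therefore not read as a result about the members. In KI, Efnb2 (3.53 ± 0.48), Sema3e (4.09 ± 0.70), Epha1 (2.00 ± 0.42) and Sema5a (-1.99 ± 0.24) were called between the media with RNase I. The block within genotype gave 10 members in place of 4, without the share of all genes beside it. None of these 4 calls held in every alternative: with single libraries left out Epha1 was lost in 7 of 14, Sema3e in 2, and Efnb2 and Sema5a in 1 each. In WT, Efnb2 (3.32 ± 0.43), Nrp2 (3.53 ± 0.47) and Ntn1 (-4.55 ± 0.68) were called in all 14 alternatives run. Slit1, Sema4c and Sema3f were called for the medium in WT with RNase I and not with MNase. Slit1, a Robo ligand, was at 0.317 and 0.115 CPM in WT LIF/2i and at 1.80 and 4.92 CPM in WT LIF (3.68 ± 0.83, adjusted p = 0.0219). Its call, and those of Sema4c (1.49 ± 0.35) and Sema3f (2.31 ± 0.58), were lost without WT LIF replicate 2, and also without either WT LIF/2i replicate. Without WT LIF replicate 2 the differences were 2.78, 0.98 and 1.53.

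**Figure D4:**
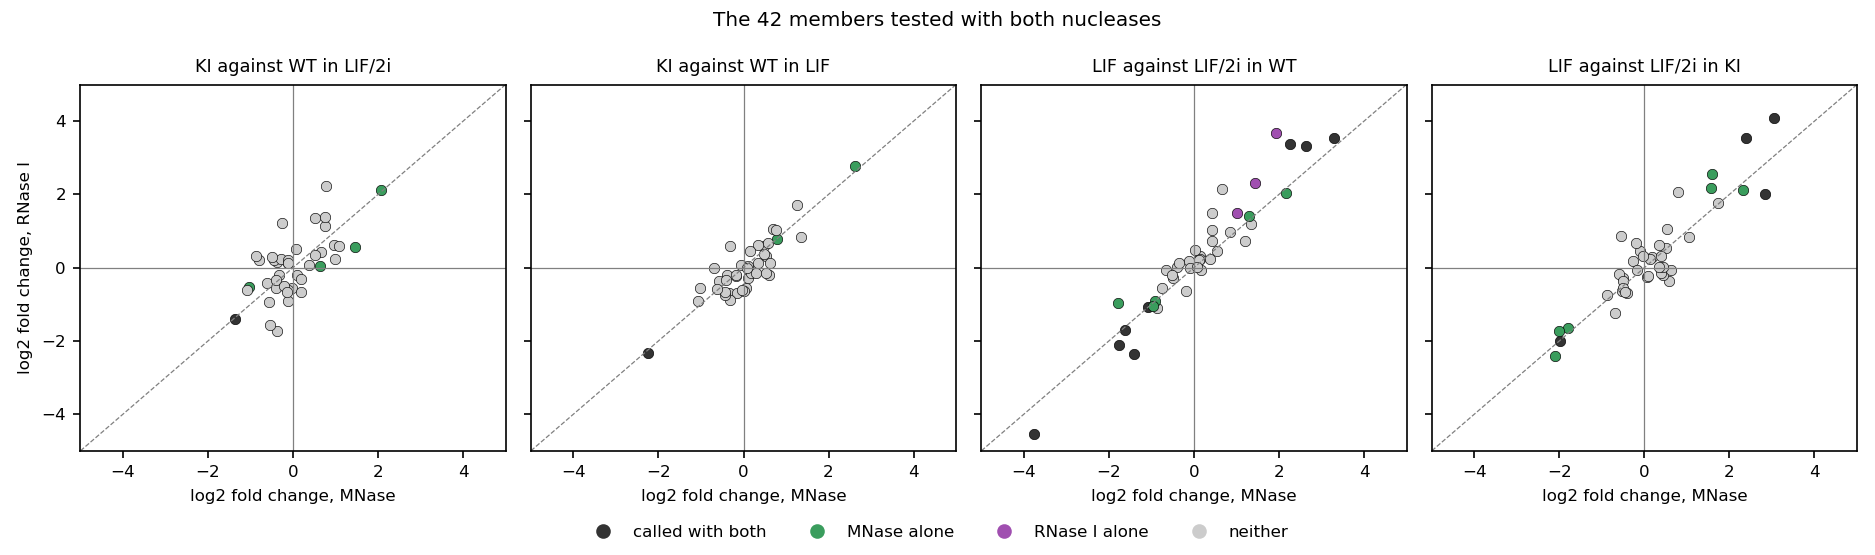
Log2 fold changes of the 42 members tested with both nucleases, MNase on the horizontal and RNase I on the vertical axis, in 4 comparisons, with the line of equal change dashed. Members called with MNase have the same sign on both axes, and Sema5a is the member called with both in each genotype comparison.

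Between RNase I and MNase, 6 of 49 tested members were called in replicates 1 and 2 of all groups, against 32.0% of all tested genes. The digestion and any other difference in how these libraries were made cannot be told apart. With RNase I, Efna1 (1.26 ± 0.27, adjusted p = 0.00205), Sema4c (0.70 ± 0.23, adjusted p = 0.0277) and Sema4b (0.45 ± 0.12, adjusted p = 0.00837) were higher, where 15.7% of 12732 tested genes were. Sema4g (-1.25 ± 0.24, adjusted p = 0.00088), Sema6c (-0.54 ± 0.16, adjusted p = 0.0173) and Efna2 (-0.58 ± 0.21, adjusted p = 0.0463) were lower, where 16.4% were. Sema4g was lower with RNase I in every same-numbered pair of libraries, and in WT LIF/2i, for example, it had 25.5 and 29.6 CPM with MNase and 6.83 and 11.9 CPM with RNase I. With a replicate block, which pairs the digests of the same number, 18 members were called in place of 6, all 6 among them, while the share called of all genes rose from 32.0% to 47.1%. The calls of Efna1, Sema4b and Sema4g held in all 21 alternatives, while Efna2 was lost in 12, Sema4c in 6 and Sema6c in 1.

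KI replicate 1 departed from its fellow replicates in some members. With MNase it lay above both other KI libraries by over 1.5-fold in both media in 3 of the 46 tested members, and below both in 9, a rule set after the values were seen. The rule was not applied to all tested genes, so these counts do not set the members apart from other genes. The 3 were Robo1, Sema4f and Plxdc2, and RNase I replicate 1 was above replicate 2 in both media for all 3. Sema4f was at 14.5, 3.46 and 4.23 CPM in KI LIF/2i and at 8.62, 4.20 and 3.80 CPM in KI LIF. Below were Slit2, Slit3, Sema4c, Sema4g, Sema5b, Sema6b, Ephb4, Epha8 and Unc5a, and 6 of the 9 were also lower in RNase I replicate 1 in both media. Some of these rested on few counts: in KI LIF/2i with MNase, Epha8 had 0, 2 and 1 counts and Sema6b 3, 9 and 16. Slit3 was at 4.28, 12.2 and 12.3 CPM in KI LIF/2i and at 4.15, 16.8 and 19.8 CPM in KI LIF. Robo1, a receptor, was high and Slit2 and Slit3, its ligands, low in the same libraries, a pairing picked after the values were seen. Slit1 and Robo4 did not keep to it, as replicate 1 changed side between the media with MNase. Slit1 was at 1.53, 0.256 and 0.423 CPM in KI LIF/2i and at 0.923, 3.62 and 2.68 CPM in KI LIF. Robo4 was likewise highest in replicate 1 in KI LIF/2i and lowest in replicate 1 in KI LIF. The labels give no origin of this replicate, and the source of its departure was not tested.

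**Figure D5:**
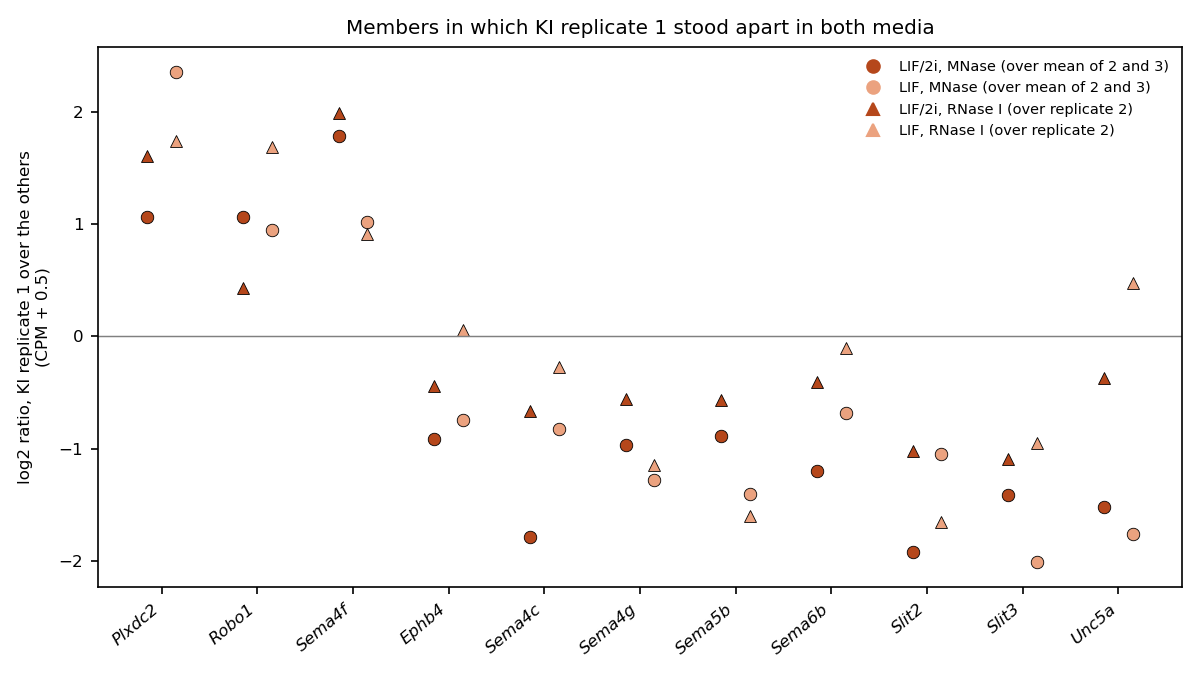
Log2 ratio of KI replicate 1 to the other KI replicates (CPM + 0.5) for 11 members in which it stood apart in both media with MNase, Epha8 being left out for its low level. Circles are MNase (over the mean of replicates 2 and 3), triangles RNase I (over replicate 2), dark LIF/2i and light LIF. Plxdc2, Robo1 and Sema4f lie above 0 at every point, and Ephb4 and Unc5a have 1 RNase I point above 0 each.

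WT LIF replicate 2 had the highest level of some members. With MNase, 14 of the 64 members had their highest level of the 12 libraries there, and were also higher in RNase I replicate 2 than in replicate 1 of WT LIF. This too was counted after the values were seen, and not over all genes, so it does not set the members apart from other genes. The margin over the next MNase library ran from 1.10-fold (Efnb1) to 4.41-fold (Sema3d), and the members named here had the largest margins. Sema3d was at 0, 2.71 and 0 CPM in WT LIF with MNase and at 0.225 and 5.16 CPM with RNase I. Robo2 was at 0.456, 3.53 and 0.176 CPM and Nrp1, the co-receptor of Sema3a, at 2.28, 5.15 and 0.879 CPM. Sema3a itself was at 0, 1.90 and 0 CPM with MNase and at 0 and 3.44 CPM with RNase I. The summed level of 9 fibroblast markers was 219, 738 and 124 CPM in the 3 WT LIF libraries with MNase. In the other 9 libraries it was 131 to 234 CPM. Col1a1, at 63.9, 290 and 25.1 CPM, and Col1a2, at 39.2, 346 and 13.7 CPM, were highest in replicate 2. Col3a1 (27.4, 17.6 and 6.86 CPM), Postn, Dcn and S100a4 were highest in replicate 1, and Thy1 in replicate 3. Fbln1 was level at 69.8, 74.3 and 70.2 CPM, and Lum was near 0. In the RNase I libraries, Col3a1, Postn, Dcn and S100a4 were higher in replicate 2 than in replicate 1. None of Sema3a, Sema3d, Robo2 and Nrp1 passed the filter on low counts with MNase, and the part of fibroblasts in their level was not tested.

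Plexins and other guidance receptors and adhesion molecules were a list of 30 genes, of which 23 were tested. In WT, 3 were higher and 2 lower in LIF, and in KI 5 were higher and 2 lower, so that 21.7% and 30.4% were called, against 21.0% and 18.7% of all tested genes. Cntn2, an adhesion molecule of axons (2.30 ± 0.49 in WT, 2.18 ± 0.37 in KI), Plxnb1, the receptor of Sema4d (1.45 ± 0.36 and 1.39 ± 0.33), and L1cam (1.07 ± 0.35 and 1.35 ± 0.30) rose in both genotypes. Rgma (-2.34 ± 0.43 and -1.46 ± 0.41) and its receptor neogenin, Neo1 (-0.50 ± 0.13 and -0.73 ± 0.13), fell in both. Between genotypes, 2 were higher and 5 lower in KI in LIF/2i (30.4% against 25.4% of all tested genes), and none was called in LIF, where 4 had an unadjusted p under 0.05. In LIF/2i, Flrt3 (2.15 ± 0.52) and Neo1 (0.52 ± 0.13) were higher, and Ptch1, the Hedgehog receptor (-1.22 ± 0.26), and Rgma (-1.54 ± 0.38) were lower. No gene of this list passed the interaction.

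Intracellular effectors of guidance signals, 51 genes all tested with MNase, gave 7 higher and 9 lower in LIF in WT (31.4% called, against 21.0% of all tested genes), and 4 higher and 7 lower in KI (21.6% against 18.7%). Crmp1, a collapsin response mediator of semaphorin signals, went from a mean of 2.00 to 41.8 CPM in WT (4.37 ± 0.49, adjusted p = 9.3e-05) and from 21.6 to 111 CPM in KI (2.35 ± 0.35, adjusted p = 0.00068). Its relative Dpysl5 rose in WT (2.03 ± 0.34) and Dpysl2 in KI (1.85 ± 0.35), while Dpysl3 fell in KI (-1.07 ± 0.24). The actin-binding Ablim1 (-2.13 ± 0.31) and Kalrn (-1.05 ± 0.20) fell in WT, and Mical1 (-0.85 ± 0.14) fell in KI. Between genotypes, 8 were higher and 9 lower in KI in LIF/2i (33.3% against 25.4%), and 4 higher and 2 lower in LIF (11.8% against 13.4%). Crmp1 was higher in KI in LIF/2i (3.41 ± 0.50) and in LIF (1.39 ± 0.35), and Kalrn lower in both (-1.67 ± 0.19 and -0.82 ± 0.20). In LIF/2i Dpysl5 (2.28 ± 0.33) was higher in KI and Ablim1 (-2.15 ± 0.30) lower, and in LIF the kinase Pak1 (0.64 ± 0.14) was higher and cofilin, Cfl1 (-0.50 ± 0.11), lower. No effector passed the interaction.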

How the data were processed

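Ribosome footprints of mESCs were counted in 20 libraries. The authors deposited raw counts per gene over coding sequence, one column a library. The tools named by the submitters' processing notes are UMI-tools 1.0.1, Bowtie 1.3.0 and cutadapt 3.4. The genome build and the counting step are not given in the sources used here.

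The counts were tested with edgeR 4.0.16 (R 4.3.3, quasi-likelihood, TMM scaling, filterByExpr) in a fit of 4 groups for each nuclease, adjusted with Benjamini-Hochberg over all tested genes. The RNase I against MNase fit used replicates 1 and 2. The procedure was tested on simulated data. Intervals cover counting error only. Scaling by library totals in place of TMM shifted the median of all genes by -0.10 in LIF/2i between genotypes and by 0.10 between media in KI.

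The members and gene lists were chosen with earlier results of these data known. Named were members called with MNase, with every library's values for up to the 8 smallest p-values in each comparison, the smallest-p member of each uncalled family, and up to 4 genes of each other list in a comparison. A part of the rule on footprints per kb was not applied, since coding lengths were not used here, so levels are not compared between genes. Members named for KI replicate 1, for WT LIF replicate 2, for RNase I or as examples were chosen after their values were seen.

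In KI, MNase libraries of the same number deviated together between the media (correlations 0.315 to 0.563), but replicates 2 and 3 also did so crosswise (0.404 and 0.367) and the labels state no shared origin, so a pairing of replicates 2 and 3 by number is not shown. In other MNase comparisons the same-number values were -0.0993 to 0.118. Alternatives were DESeq2 1.42.0, RLE and library-total scaling, no filter, a replicate block, thinning, leaving out libraries and fitting both nucleases together. A block within genotype was added after the data were seen. Promoter windows came from RefSeq on GRCm38.p6.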

Additional observations from a re-analysis of the deposited data

How the results depend on the processing

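No member called in the report changed direction under any alternative run. Except where a share is printed, the counts of these runs, here and above, stand without the share of all tested genes. They are not read as results about the members. The fit of both nucleases counts digests of the same number, which deviate together, as separate replicates, so its counts rest on an n above the distinct samples. With MNase, the 6 members called between genotypes in LIF/2i became 3 after thinning, 15 without KI replicate 1 in both media and 10 with both nucleases in one fit, and 2 to 8 with 1 library left out. The 4 called in LIF became 8 without KI replicate 1 in both media and 10 with both nucleases, and 1 to 7 with 1 library left out. For the medium, the 14 called in WT became 27 with both nucleases and 7 to 16 with 1 library left out, and the 11 in KI became 18 and 10 to 13. The interaction went from 0 to 1 without KI replicate 1 in both media (Sema4f) and to 1 with both nucleases (Sema5a), and stayed at 0 with any 1 library left out. With RNase I, the genotype count of 1 in LIF/2i became 3 with DESeq2 and 3 without the filter, and 0 to 2 with 1 library left out, and the count of 1 in LIF became 2, 2 and 0 to 1. The medium count of 11 in WT became 18 without the filter and 4 to 15 with 1 library left out, and the count of 4 in KI became 10 with DESeq2, 10 without the filter and 2 to 4. The nuclease count of 6 ran from 4 to 9 with 1 library left out.

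The replicate block with MNase gave 7 and 4 members between genotypes, 16 in WT and 11 in KI between media, and 0 for the interaction. With RNase I it gave 1, 1, 11, 6 and 0, and 18 for the nucleases. The replicate block within genotype, chosen after seeing the data, gave 20 and 15 between media with MNase, and 19 and 10 with RNase I. The cause of these moves was not tested. Thinning to the smallest MNase total removed the genotype calls of Ephb6 and Sema4b in LIF/2i and of Epha2 and Ntn1 in LIF. It also removed the medium calls of Nrp2 and Sema3f in KI and of Sema4f in WT. The WT medium calls of Ephb6, Nrp2 and Ntn1 were kept.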
